A study of Mus musculus with 4 samples.

Results

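The genes of the mouse major histocompatibility complex (MHC), which carry names beginning with H2-, lie on chromosome 17, and the positions of peaks of topoisomerase IIβ (TOP2B) were determined around them. Members were the protein-coding genes of chromosome 17 with such a name in GENCODE M1, the annotation of mouse build mm9, and they numbered 36 of 22367 protein-coding genes. A peak was assigned to a gene when its centre lay inside the gene or within 20 kb of it. Under this rule, 25 of the 17754 peaks of the Santa Cruz list and 12 of the 3564 peaks of the Novus list lay at H2 genes. The 36 genes comprised 2 classical class I genes (H2-K1 and H2-D1), 23 non-classical class I genes (the Q, T and M genes), 9 class II genes and 2 genes that encode neither kind of chain (H2-Ke2 and H2-Ke6). The annotation holds 2 entries named H2-Q2, written here as H2-Q2 (1) and H2-Q2 (2) in their order along the chromosome.

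TOP2B binding was measured by ChIPseq in thymocytes of C57BL/6 mice of 4 to 6 weeks of age, with no genotype other than wild type and no drug treatment in the libraries used. Libraries were made from formaldehyde-fixed chromatin by ChIPmentation, in which a transposase adds the adaptors on the beads, with TOP2B antibodies from Santa Cruz and Novus Biologicals. The series has 4 libraries, and those made with TOP2A antibody or IgG are not analysed here. Each antibody had 1 library, so that there was no replicate error and no test between classes was made. The lists give the position of each peak and a score of 0 throughout, so that the read depth and the height of a peak are unknown. They hold no expression values either, and the thymocyte label was not checked against marker genes.

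TOP2B changes DNA topology by cutting both strands of a duplex, moving a second duplex through the gap and resealing it, and it is known to lie at promoters, enhancers and sites bound by CTCF, a zinc finger protein that anchors chromatin loops. Class I molecules present peptides from inside the cell to CD8+ T cells and are made by almost all nucleated cells. Class II molecules present peptides from endosomes to CD4+ T cells and are made mainly by B cells, dendritic cells, macrophages and thymic epithelium, whereas mouse thymocytes themselves are not known as a class II-expressing cell. Many class I genes arose by recent duplication, so that near-identical stretches recur within the complex.

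At 7 places, a peak of each antibody shared at least 1 bp, and these common peaks are the positions at H2 genes that do not depend on a single antibody. They lay on the 3′ side of H2-Oa, just inside H2-DMa, upstream of H2-Ob, on the 3′ side of H2-T24, upstream of H2-T22 and just inside the predicted gene Gm6034, upstream of H2-T3 and on the 3′ side of H2-M10.1. Their sequences are given on the plus strand of mm9 because they carry the overlap between antibodies, with a match to the CTCF core in capitals. The H2-DMa peaks lie in an annotated untranslated region, and only their CTCF match is shown further on. Of the peaks upstream of H2-T22, only the stretch outside the untranslated region of Gm6034 is given, which holds no CTCF match.
H2-Oa 3′ side, Santa Cruz call, chr17:34238456-34238642: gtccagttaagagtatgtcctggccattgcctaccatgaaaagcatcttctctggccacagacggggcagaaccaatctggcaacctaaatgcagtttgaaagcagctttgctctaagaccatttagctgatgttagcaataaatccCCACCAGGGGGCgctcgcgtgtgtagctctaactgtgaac
H2-Ob upstream, both calls and the match, chr17:34371854-34372126: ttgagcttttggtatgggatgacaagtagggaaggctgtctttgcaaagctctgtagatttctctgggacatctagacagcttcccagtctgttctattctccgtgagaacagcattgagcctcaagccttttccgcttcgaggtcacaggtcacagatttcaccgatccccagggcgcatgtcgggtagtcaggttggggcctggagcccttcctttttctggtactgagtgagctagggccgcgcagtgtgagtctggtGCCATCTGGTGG
H2-T24 3′ side, both calls, chr17:36133960-36134221: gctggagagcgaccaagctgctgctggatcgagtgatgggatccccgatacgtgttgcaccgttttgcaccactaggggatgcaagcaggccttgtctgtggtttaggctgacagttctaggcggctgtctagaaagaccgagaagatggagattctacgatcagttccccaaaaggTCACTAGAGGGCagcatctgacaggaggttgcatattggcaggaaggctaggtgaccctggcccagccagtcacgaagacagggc
H2-T22 upstream, outside the untranslated region of Gm6034, chr17:36180075-36180230: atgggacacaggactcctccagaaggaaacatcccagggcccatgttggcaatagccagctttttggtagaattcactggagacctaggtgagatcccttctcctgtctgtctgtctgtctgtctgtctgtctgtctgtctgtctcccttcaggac
H2-T3 upstream, both calls, chr17:36330593-36330832: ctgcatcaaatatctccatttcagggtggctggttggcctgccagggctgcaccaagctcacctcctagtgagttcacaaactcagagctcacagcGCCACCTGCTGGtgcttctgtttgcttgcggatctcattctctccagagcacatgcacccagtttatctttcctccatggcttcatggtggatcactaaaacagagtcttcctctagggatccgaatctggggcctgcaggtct
H2-M10.1 3′ side, both calls, chr17:36445736-36446008: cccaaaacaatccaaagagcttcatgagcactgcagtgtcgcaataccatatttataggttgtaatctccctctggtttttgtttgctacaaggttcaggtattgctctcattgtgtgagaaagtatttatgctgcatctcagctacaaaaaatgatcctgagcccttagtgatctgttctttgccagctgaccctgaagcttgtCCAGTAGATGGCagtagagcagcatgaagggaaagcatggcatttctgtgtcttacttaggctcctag

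The CTCF core, a consensus of 12 bases, was searched on either strand up to 250 bp from the centre of each peak allowing at most 1 mismatch. It was present at 6 of the 7 common sites, in 5 of them without a mismatch. The matches are aligned here on the strand that reads as the consensus, with the 12 bases in capitals, to show how much they share.
H2-Oa 3′ side, chr17:34238594-34238623, plus strand: aataaatccCCACCAGGGGGCgctcgcgtg
H2-DMa start, chr17:34272355-34272384, plus strand: cccgaccttCCACCAGGGGGCggaggtctc
H2-Ob upstream, chr17:34372106-34372135, minus strand: tttacatggCCACCAGATGGCaccagactc
H2-T24 3′ side, chr17:36134128-36134157, plus strand: cccaaaaggTCACTAGAGGGCagcatctga
H2-T3 upstream, chr17:36330680-36330709, minus strand: acagaagcaCCAGCAGGTGGCgctgtgagc
H2-M10.1 3′ side, chr17:36445932-36445961, plus strand: gaagcttgtCCAGTAGATGGCagtagagca
The matches on the 3′ side of H2-Oa and at the start of H2-DMa had identical 12 bases. The match near H2-T24 carried the 1 mismatch. In the class II region the best matches of the peaks lay on the plus strand from upstream of H2-Oa to H2-DMa (4 sites) and on the minus strand at H2-Ob and in H2-Eb1 (2 sites), while H2-DMa held a further minus-strand match with 1 mismatch.

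Peaks at H2 genes held the CTCF core at larger shares than the lists as a whole. The core was found at 13 of 25 Santa Cruz peaks (52.0%, exact 95% interval 31.3 to 72.2%) beside 15.9% of the whole Santa Cruz list. It was found at 7 of 12 Novus peaks (58.3%, 27.7 to 84.8%) beside 25.6% of the whole Novus list. Both counts with the core include the same 6 common sites, so that they are not separate observations. Of the common peaks alone, 85.7% at H2 genes (42.1 to 99.6%, n = 7) held it, beside 38.2% of all common peaks of the Santa Cruz list and 39.4% of those of the Novus list. Of the single Santa Cruz peaks, 7 of 18 at H2 genes (38.9%, 17.3 to 64.3%) and 14.6% in the whole list had it. Of the single Novus peaks, 1 of 5 at H2 genes and 20.2% in the whole list had the core. Adjoining stretches of 501 bp held it in 6.97% of cases across the windows of the H2 genes and in 4.53% across chromosome 17. The intervals cover counting error only, and a match of letters is not a measurement of CTCF binding.

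**Figure D1:**
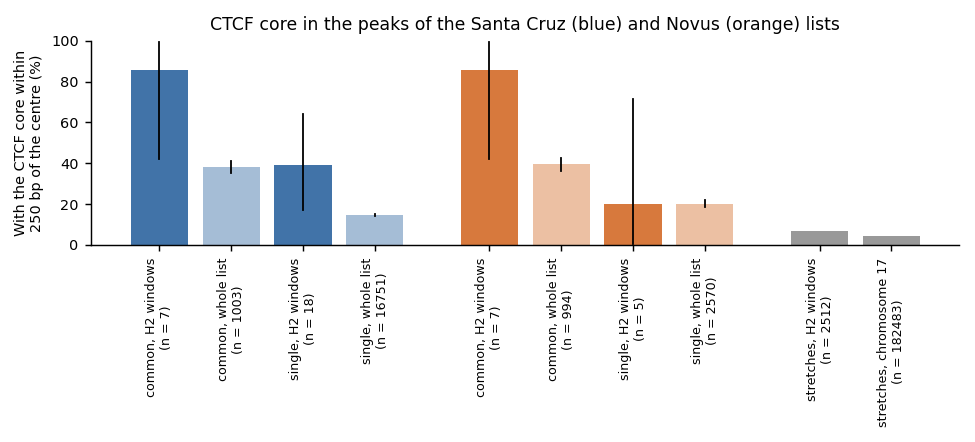
Share of peaks with a CTCF core match (at most 1 mismatch) within 250 bp of the centre, in percent, for common and single peaks at H2 genes and in the whole lists, and for adjoining stretches of 501 bp; black lines are exact 95% intervals. The common peaks at H2 genes stand at 85.7% in both lists, since they are the same 7 sites, and the stretches of the H2 windows at 6.97%.

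All 9 class II genes had a Santa Cruz peak inside or within 20 kb, and 5 also had a Novus peak. Of the 23 non-classical class I genes, 10 had a Santa Cruz peak (43.5%, exact 95% interval 23.2 to 65.5%) and 6 a Novus peak (26.1%). Of the classical class I genes, which present most peptides, H2-D1 had 1 Santa Cruz peak and H2-K1 had none. H2-Ke2 and H2-Ke6 each had Santa Cruz peaks and no Novus peak. Neighbouring genes share peaks, since the windows of the 9 class II genes merge into 2 stretches, so that the genes of a class are not separate observations.

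Over all 36 genes, 22 had a Santa Cruz peak (61.1%, 43.5 to 76.9%), beside 51.5% of all protein-coding genes. A Novus peak was found at 11 genes (30.6%, 16.3 to 48.1%), beside 17.4% of all genes. A common peak was found at 10 genes (27.8%, 14.2 to 45.2%), beside 5.51% of all genes and 8.43% of those on chromosome 17. The Santa Cruz share was near its background, whereas the common share was larger than its own. The 10 genes with a common peak share 7 sites. The intervals treat genes as separate and are therefore too narrow to judge a difference by. Within 1 kb of a transcription start, 5 genes had a Santa Cruz peak (13.9%, 4.67 to 29.5%, background 12.1%) and 5 had a Novus peak (13.9%, background 5.11%).

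**Figure D2:**
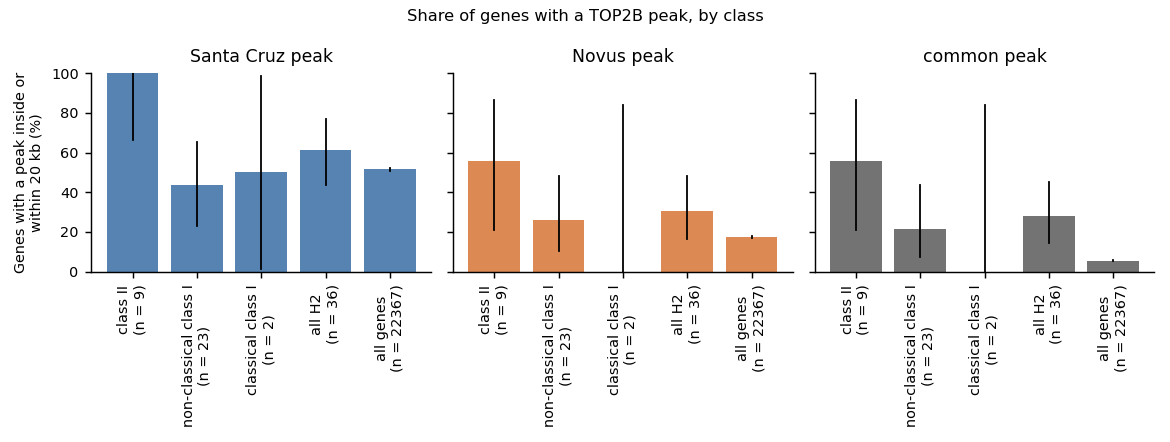
Percent of genes with a peak inside or within 20 kb, for class II, non-classical and classical class I genes, all H2 genes and all protein-coding genes, with exact 95% intervals as black lines. Class II genes stand at 100% for the Santa Cruz list and 55.6% for the Novus list and for common peaks, above the 51.5%, 17.4% and 5.51% of all genes.

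Other gene clusters showed different shares. Of the 55 histone genes of the Hist1 cluster, 74.5% had a Santa Cruz peak, 21.8% a Novus peak and 21.8% a common peak. Of the 40 Hox genes, 47.5% had a Santa Cruz peak, 10.0% a Novus peak and none a common peak. The common share of the H2 genes was 27.8%, and its interval included the share of the histone genes. Neighbouring H2 genes share peaks, so that the intervals cannot establish a difference from the Hox genes (upper bound 8.81%).

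The class II genes that load and edit peptides held most of the class II peaks. H2-Oa and H2-Ob encode the chains of H2-O, which restrains peptide loading, and H2-DMa, H2-DMb1 and H2-DMb2 encode chains of H2-M, which catalyses it. H2-Oa had 3 Santa Cruz and 2 Novus peaks. A Novus peak lay 276 bp inside the gene and had no Santa Cruz partner, and the common peak lay 9.26 kb (Santa Cruz) and 9.44 kb (Novus) downstream of its start. The latter calls shared only 11 bp, the smallest overlap of the 7 common sites.

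H2-DMa had the only common peak inside the body of an H2 gene. Its Santa Cruz call was centred 184 bp and its Novus call 205 bp downstream of the start, and they shared 170 bp, more than at any other site. The same peak lay within 20 kb of H2-DMb2 and H2-DMb1. A Santa Cruz peak 5.59 kb upstream of H2-DMa, a Santa Cruz peak 11.6 kb downstream of the start of H2-DMb1 and a Novus peak 4.87 kb beyond that one were single. The Brd2 start, between H2-Oa and H2-DMa, held a Santa Cruz peak as well (174 bp). Brd2 encodes a bromodomain protein that binds acetylated histones.

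H2-Ob had 1 common peak, 3.90 kb (Santa Cruz) and 3.85 kb (Novus) upstream of its start, with 142 bp shared. From there to H2-Eb2, no Novus peak was found. The genes of the H2-A and H2-E molecules, which present peptides to CD4+ T cells, had Santa Cruz peaks only. A peak in an intron of H2-Aa, 7.46 kb from its gene start, also lay within 20 kb of H2-Ab1. A peak in an intron of H2-Eb1, 7.79 kb from its gene start, also lay within 20 kb of H2-Eb2. In this annotation the H2-Aa gene spans 18497 bp. The next Novus peak after that at H2-Ob lay 901 kb further along.

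**Figure D3:**
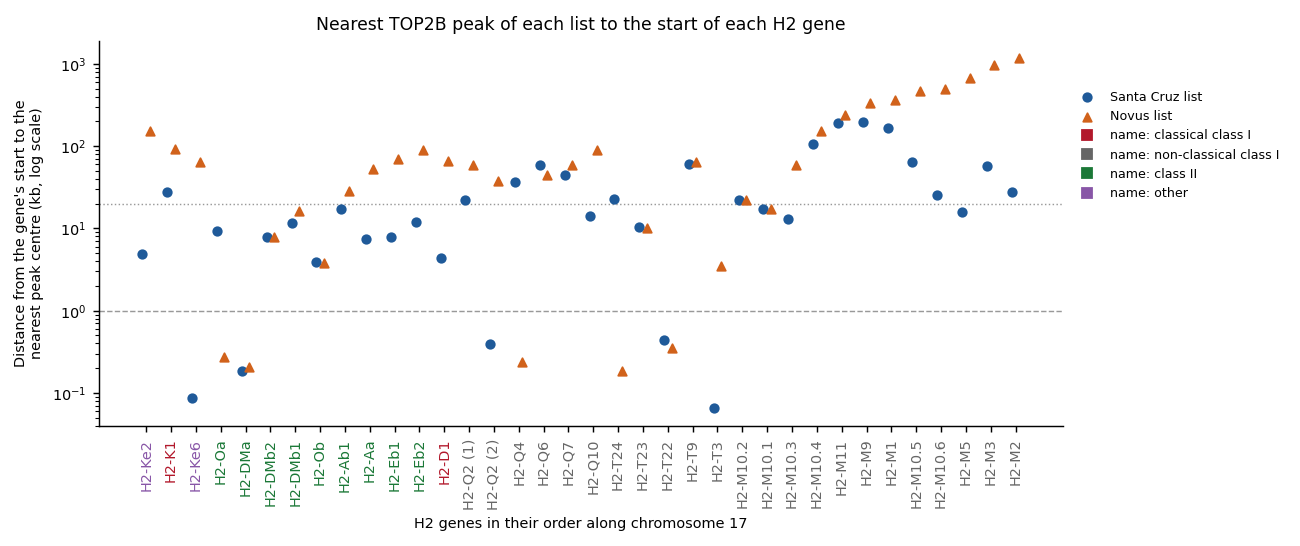
Distance in kb (log scale) from the start of each H2 gene to the nearest peak centre of each list, in the order of the genes along the chromosome, with dashed lines at 1 kb and dotted lines at 20 kb; the colours of the names give the class. Points fall below 1 kb for H2-Ke6, H2-Oa, H2-DMa, H2-Q2 (2), H2-Q4, H2-T24, H2-T22 and H2-T3, and Novus distances exceed 100 kb from H2-M10.4 to H2-M2.

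Of the classical class I genes, H2-K1 had no peak within 20 kb, and the nearest centres were 27.6 kb (Santa Cruz) and 92.3 kb (Novus) from its start. H2-D1 had a single Santa Cruz peak 4.42 kb upstream, with the nearest Novus peak 66.8 kb away. Between H2-K1 and the class II genes, H2-Ke6, which encodes a steroid dehydrogenase, had a Santa Cruz peak 0.0860 kb inside its start, and a further Santa Cruz peak lay at the start of Rxrb (0.665 kb), the gene of a retinoid X receptor. H2-Ke2, a subunit of the prefoldin chaperone, had its peak in an intron of the neighbouring gene Wdr46.

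Among the Q genes, 2 had a peak within 1 kb of their start, and each was called with a different antibody. The Santa Cruz peak in H2-Q2 (2) was centred 399 bp and the Novus peak in H2-Q4 238 bp downstream of the start. Both reached into the coding sequence, and their GC content over 501 bp was 68.1% and 67.1%, among the highest of the peaks at H2 genes. H2-Q2 (1) shared the H2-Q2 (2) peak, and H2-Q10, which encodes a secreted class I molecule of the liver, had a Santa Cruz peak 14.1 kb downstream of its start. H2-Q6 and H2-Q7 had no peak.

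The T genes held 3 of the 7 common sites. H2-T22, a ligand of γδ T cells, and H2-T23, a ligand of CD94/NKG2 receptors, had a common peak 0.445 kb (Santa Cruz) and 0.349 kb (Novus) upstream of the H2-T22 start. It lay inside Gm6034, which runs the other way, 231 bp (Santa Cruz) and 135 bp (Novus) past its start. H2-T24 had a Novus peak 183 bp inside its gene start and a common peak on its 3′ side. H2-T3, which encodes the thymus leukaemia antigen, had 4 Santa Cruz peaks, the most of any H2 gene. The nearest was centred 0.0650 kb upstream of its start and was not in the Novus list, and the others lay 3.51, 8.41 and 12.6 kb upstream, of which the first was common. H2-T9 had no peak, the nearest being 60.9 kb (Santa Cruz) and 64.3 kb (Novus) away. A Novus peak near the predicted gene Gm11127 lay 18.5 kb upstream of H2-T22.

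Of the M genes, H2-M10.1 had a common peak on its 3′ side, 17.2 kb (Santa Cruz) and 17.3 kb (Novus) from its start. H2-M10.2, whose start lay 22.5 kb and 22.4 kb from the same calls, fell just outside the limit of 20 kb. H2-M10.3 had a Santa Cruz peak at 13 kb, and H2-M5 had one that lay at the start of Zfp57, an imprinting regulator, 15.9 kb away. The H2-M10 genes are known from the vomeronasal organ, where they accompany V2R receptors. In all, 13 H2 genes had no peak of either list, namely H2-K1, H2-Q6, H2-Q7, H2-T9, H2-M10.2, H2-M10.4, H2-M11, H2-M9, H2-M1, H2-M10.5, H2-M10.6, H2-M3 and H2-M2. They comprised 12 of the 23 non-classical class I genes and 1 of the 2 classical ones. Over all protein-coding genes 51.5% had a Santa Cruz peak, and the share with a peak of neither list was not determined. The longest gap of the Santa Cruz list within the complex, 482 kb, spanned 7 of the H2-M genes, from H2-M10.3 to H2-M10.6. No Novus peak was found from the one near H2-M10.1 to H2-M2, whose start lay 1175 kb from the nearest.

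The single peaks at the starts of H2 genes are given in full, on the plus strand of mm9, because these are the positions nearest to the sites of transcription. No letters are in capitals here, since none of the stretches holds a complete CTCF core match.
H2-Ke6, Santa Cruz, chr17:34164826-34165012: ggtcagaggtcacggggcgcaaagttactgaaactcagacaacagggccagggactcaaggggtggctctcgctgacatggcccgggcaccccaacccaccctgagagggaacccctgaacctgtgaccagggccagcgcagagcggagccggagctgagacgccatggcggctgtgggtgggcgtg
H2-Oa, Novus, chr17:34229464-34229658: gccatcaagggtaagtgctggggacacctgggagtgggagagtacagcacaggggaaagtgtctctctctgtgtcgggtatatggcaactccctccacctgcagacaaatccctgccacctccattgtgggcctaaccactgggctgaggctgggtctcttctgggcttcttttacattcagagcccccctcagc
H2-Q2 (2), Santa Cruz, chr17:35479493-35479679: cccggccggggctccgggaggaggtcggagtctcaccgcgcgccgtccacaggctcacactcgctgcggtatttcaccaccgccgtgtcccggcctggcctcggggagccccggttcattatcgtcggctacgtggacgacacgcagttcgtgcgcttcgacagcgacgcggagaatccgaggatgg
H2-Q4, Novus, chr17:35516703-35516897: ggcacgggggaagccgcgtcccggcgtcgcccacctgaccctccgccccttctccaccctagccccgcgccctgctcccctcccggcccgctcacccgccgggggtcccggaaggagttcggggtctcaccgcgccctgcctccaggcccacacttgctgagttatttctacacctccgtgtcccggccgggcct
H2-T24, Novus, chr17:36157225-36157419: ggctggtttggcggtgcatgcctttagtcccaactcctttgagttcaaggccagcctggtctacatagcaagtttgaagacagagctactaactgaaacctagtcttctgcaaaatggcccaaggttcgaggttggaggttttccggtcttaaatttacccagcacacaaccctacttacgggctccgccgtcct
H2-T3, Santa Cruz, chr17:36327204-36327390: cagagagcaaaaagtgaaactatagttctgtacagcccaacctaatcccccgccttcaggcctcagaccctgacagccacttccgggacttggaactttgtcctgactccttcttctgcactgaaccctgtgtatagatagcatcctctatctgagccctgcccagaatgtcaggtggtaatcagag

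By class, peak density was highest around the class II genes. The windows of the H2 genes merged into 17 stretches of 1.26 Mb in all and held 19.8 Santa Cruz peaks and 9.50 Novus peaks per Mb, beside 9.67 and 2.09 per Mb over the windows of all protein-coding genes. To set these against shifted peaks, all peaks of chromosome 17 were moved along the sequenced chromosome together in steps of 100 kb, which gave 922 shifts. The Santa Cruz peaks in the windows then numbered 10.4 on average (range 0 to 37), so that the 25 found were 2.39 times the mean (Poisson interval of the count 1.55 to 3.53). The Novus peaks numbered 2.29 on average (range 0 to 12), and the 12 found were 5.23 times the mean (2.70 to 9.14). Both counts were within the range that shifts reached, and the central 95% of shifts ran from 1 to 25 peaks for Santa Cruz and from 0 to 8 for Novus. The ratio for Novus was 2.96 when only shifts of up to 5 Mb were used.

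By class, the windows of class II genes held 10 Santa Cruz peaks (40.1 per Mb, 4.93 times the shifted mean, 2.37 to 9.07) and 5 Novus peaks (20.1 per Mb, 11.4 times, 3.71 to 26.6). Those of non-classical class I genes held 11 Santa Cruz peaks (12.9 per Mb, 1.54 times, 0.769 to 2.76) and 7 Novus peaks (8.18 per Mb, 4.44 times, 1.79 to 9.15). Those of classical class I genes held 1 Santa Cruz peak and no Novus peak in 0.0891 Mb, a length in which 0.735 and 0.174 were found on average after shifting, so that a difference was not detectable at this size. Those of H2-Ke2 and H2-Ke6 held 3 Santa Cruz peaks (35.9 per Mb, 4.48 times, 0.924 to 13.1), a ratio close to that of class II, and no Novus peak. The intervals of class II and non-classical class I genes overlapped for both antibodies. By segment, all peaks were counted from 20 kb before the first to 20 kb after the last gene. The class II segment (H2-Oa to H2-Eb2) held 14 Santa Cruz and 7 Novus peaks in 288 kb with 18 protein-coding genes. The T segment held 6 and 5 in 225 kb with 14 genes, and the D and Q segment 3 and 1 in 252 kb with 7. The M segment held 7 and 1 in 1239 kb with 43, and the K segment (H2-Ke2 to H2-Ke6) 3 and 0 in 129 kb with 11. The Novus density of the T segment (22.3 per Mb) was near that of the class II segment (24.3 per Mb).

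**Figure D4:**
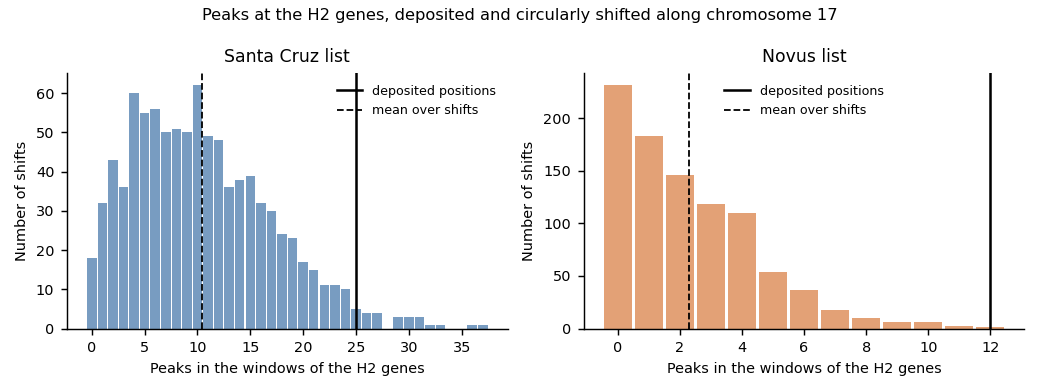
Number of peaks in the windows of the H2 genes after each of 922 circular shifts of the peaks of chromosome 17 (bars), with the number at the deposited positions (solid line) and the mean over shifts (dashed line), for each list. The deposited positions gave 25 Santa Cruz and 12 Novus peaks, and the shifted means were 10.4 and 2.29.

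Of the 12 Novus peaks, 7 were common (58.3%, exact 95% interval 27.7 to 84.8%), beside 27.9% of the whole Novus list. Of the 25 Santa Cruz peaks, 7 were common (28%, 12.1 to 49.4%), beside 5.65% of the whole list. The lower bound for Novus was just under the share of the whole list, and that for Santa Cruz was above it. With at least 50% of both peaks shared, 5 sites remained. Peaks within 1 kb of a protein-coding start were counted as at a start, also where they lay in an exon or intron. Of the Santa Cruz peaks, 32.0% lay at a start (14.9 to 53.5%, whole list 15.2%) and 56.0% between genes (34.9 to 75.6%, whole list 42.1%). The nearest start was that of an H2 gene for 4 of these 8 start peaks. A further 12.0% lay elsewhere in an intron (39.5%) and none elsewhere in an exon. Of the Novus peaks, 41.7% lay at a start (15.2 to 72.3%, whole list 29.7%) and 58.3% between genes (27.7 to 84.8%, whole list 36.5%). The nearest start was that of an H2 gene for 4 of these 5 start peaks. None lay elsewhere in an intron (30.7%) or exon. For both lists, the intervals at starts and between genes included the shares of the whole list.

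The sequence around class I genes was less unique than that around class II genes. Of all 75-base stretches, the read length used, 86.0% in the windows of the H2 genes occurred once in mm9, beside 91.7% on chromosome 17, and the mice were of the strain of the reference. Over the gene and 20 kb on each side, the median was 98.3% for class II and 83.4% for non-classical class I genes. The lowest shares were 38.0% for H2-Q7, 38.9% for H2-Q6, 55.7% for H2-Q4 and 57.1% for H2-Q10. Within 1 kb of the start, H2-Q6 (53.9%), H2-Q7 (61.0%), H2-T9 (65.9%) and H2-T23 (67.2%) were under 90%, and the first 3 of these had no peak. H2-K1 (97.8%) and H2-D1 (99.9%) were almost fully unique at their starts, and so were the M genes without a peak, which ranged from 96.5% to 100%. With stretches of 35 bases, the shortest read kept after trimming, 14 of the 36 starts were under 90% instead of 4, among them H2-K1 (75.6%), H2-D1 (88.7%) and H2-M10.5 (82.2%). Of the 1091 protein-coding genes of chromosome 17, 135 had a start under 90% with 75 bases and 253 with 35 bases. The part of sequence uniqueness in the absence of peaks was not tested.

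**Figure D5:**
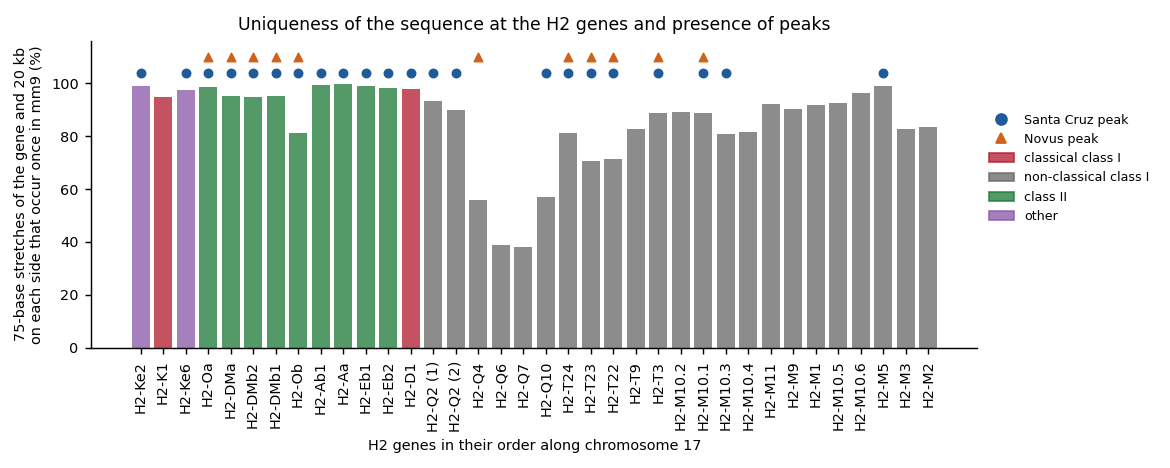
Percent of 75-base stretches of each H2 gene and its 20 kb on each side that occur once in mm9 (bars, coloured by class), with symbols above the bars where a Santa Cruz or Novus peak lies in that window. H2-Q6 and H2-Q7 have the lowest bars (38.9% and 38.0%) and no peak, while H2-K1 (94.8%) has no peak either.

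The peaks themselves lay in unique sequence for the most part. All 75-base stretches touching the peak occurred once for 21 of 25 Santa Cruz peaks (84.0%) and 10 of 12 Novus peaks (83.3%). These shares were smaller than those of the peaks on the rest of chromosome 17 (98.2% and 98.1%). The lowest share within a peak was 72.1%, for the Novus call near H2-M10.1. With stretches of 35 bases, 19 of 25 Santa Cruz and 8 of 12 Novus peaks were fully unique. On the rest of chromosome 17, 86.8% and 90.4% were. The lowest 35-base shares lay at common sites. They were 41.0% (Novus) and 59.7% (Santa Cruz) near H2-M10.1 and 64.7% (Santa Cruz) upstream of H2-T22. Copies with at least 90% identity over at least 80% of the peak were found on chromosome 17 for the Santa Cruz peak of H2-Q2 (2) (4 copies, up to 94.8% identity, with H2-Q6 and H2-T23 starts within 1 kb), and for both calls near H2-M10.1 (1 copy at 98.0% for Novus, 3 at up to 94.6% for Santa Cruz). Both calls upstream of H2-T3 had 2 copies each, at up to 93.3%, as had the Novus peak near Gm11127 (92.2%) and the Santa Cruz peak near H2-M10.3 (96.3%), and the Novus call at H2-T22 had 1 (92.7%). The Santa Cruz peak near H2-M10.3 repeats much of the common stretch near H2-M10.1. The Novus peak near Gm11127 begins with a near copy of the end of the stretch upstream of H2-T3. Each was counted as a separate peak in the densities and CTCF shares, and whether the members of these pairs are separate sites was not tested. The peaks at the class II genes had none.

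The promoters of the H2 genes, 250 bp before to 50 bp after the gene start, were searched on both strands for known elements. The kappa B site GGGATTCCC of the class I enhancer was found in 3 of 36 promoters (8.33%, beside 0.362% of all promoters). These 3, of H2-K1, H2-Q6 and H2-Q7, are among the 13 of 36 H2 genes without a TOP2B peak. Within 1 kb of the start, only 53.9% of 75-base stretches at H2-Q6 and 61.0% at H2-Q7 were unique. Only exact matches were counted. The promoter of H2-Q4, which had a Novus peak within 1 kb of its start, reads gggatttccc in the corresponding stretch and was not counted. The overlap with genes without a peak therefore depends on the exact letters searched. A relation between the site and the peaks was not tested. The 3 sites are shown in capitals on the strand of the gene, since the copies in H2-Q6 and H2-Q7 illustrate how alike class I promoters are.
H2-K1, chr17:34137383-34137412, minus strand: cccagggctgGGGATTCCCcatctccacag
H2-Q6, chr17:35561613-35561642, plus strand: cccatggctgGGGATTCCCcatctccccag
H2-Q7, chr17:35575958-35575987, plus strand: cccatggctgGGGATTCCCatctccccagt
The sites begin 124, 172 and 132 bp before the annotated starts of H2-K1, H2-Q6 and H2-Q7. CCAAT, bound by NF-Y, was present in 72.2% of H2 promoters (all promoters 37.9%), among them 6 of 9 class II and 18 of 23 non-classical class I genes. TATAA was present in 18 of 36 (all promoters 23.6%), 15 of them in non-classical class I genes, where matches on both strands often overlapped. GAAANNGAA, a core pattern of the interferon response element, was present in 13.9% (8.92%), and GGGCGG in 11.1% (43.4%). Other forms of these elements were not searched, so that the shares hold for the exact letters only. The stretch agtttcacttc, shared by the promoters of H2-K1, H2-Q4, H2-Q6, H2-Q7 and H2-Q10, did not match GAAANNGAA. The windows also rest on the annotated starts, and in H2-K1 TATAA lay 21 bp after that start.

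The other genes of antigen presentation were taken from a list of 24 genes, of which 23 were found in the annotation. Of these, 17 had a Santa Cruz peak within 20 kb (all genes 51.5%), 9 a Novus peak (17.4%) and 6 a common peak (5.51%), and 4 (Canx, Rfx5, Rfxap and Rfxank) had none. Rfx5, Rfxap and Rfxank encode the RFX complex, which binds class II promoters, and Canx encodes the chaperone calnexin. The group that supplies peptides to class I molecules had the largest number of genes with a Novus peak, with a Santa Cruz peak at 6 of 7, a Novus peak at 6 and a common peak at 5. Of this group, Tap1, Tap2, Psmb8 and Psmb9 are neighbours among the class II genes and share peaks, so that these counts repeat the same sites.

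Tap1, which encodes a chain of the peptide transporter, and Psmb9, a subunit of the immunoproteasome, start close together on opposite strands. The Novus peak there was centred 33 bp from a Psmb9 start and the Santa Cruz peak 57 bp from the Tap1 start, and they did not overlap. A common peak lay near Psmb8, another such subunit, 1016 bp (Novus) and 881 bp (Santa Cruz) from its start. Tap2, the other chain of the transporter, had single Santa Cruz peaks 386 and 868 bp from its start. Away from chromosome 17, Erap1, which trims peptides, and Ctsl, a protease of class II loading, had peaks of both lists within 1 kb of a start, while B2m, the light chain of class I molecules, had a Santa Cruz peak only (0.982 kb). Ciita, the master regulator of class II genes, had Santa Cruz peaks within 20 kb, the nearest 11.6 kb from its start, and no Novus peak. Irf1, Irf2, Nfya and Nfyc had Santa Cruz peaks within 1 kb of a start.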

How the data were processed

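TOP2B ChIPseq peaks of thymocytes were analysed, with 1 library per antibody. The authors trimmed single-end reads, used Bowtie 1.2.0 for alignment to mm9, and called the peaks of each library with HOMER in factor style (at least 10-fold above IgG, FDR 1%). What was deposited is a position (chromosome, start and end of each peak), and the deposited score is 0 throughout. How reads with several matches were treated is not given in the sources used here. Read numbers are not in the lists, so that depth per peak is unknown.

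Centres were placed on GENCODE M1 genes. A peak was common when at least 1 bp was shared with the other list. Shifted peaks were all circular shifts of chromosome 17 in steps of 100 kb and serve as a description, without a p-value. Intervals are exact (Clopper-Pearson or Poisson) at 95% and cover counting error only. Windows of 75 bases were counted over mm9 on both strands. Copies were found with blastn 2.17.0. Every H2 gene with a peak was named, those without were named and counted, and common peaks and peaks within 1 kb of an H2 start were given by sequence. Members and lists were chosen with earlier results of these data known. Counting, shifts, uniqueness and motif search were tested on simulated data. Alternatives were other windows, overlaps, shifts and member sets. The tools were samtools 1.23.1 and Python 3.11.15 with pysam 0.24.0, numba 0.67.0, matplotlib 3.10.9, scipy 1.17.1 and numpy 2.4.6.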

Additional observations from a re-analysis of the deposited data

How the results depend on the processing

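No paired analysis was possible because each antibody has 1 library, and no replicate could be left out for the same reason. Counting only centres inside the gene bodies, and so fewer bases, left 5 Santa Cruz peaks (25 with 20 kb) and 4 Novus peaks (12 with 20 kb). They lay at 13.9% and 11.1% of the H2 genes (61.1% and 30.6% with 20 kb). The Novus density became 11.8 times the shifted mean (5.23 with 20 kb), a ratio that rests on 4 peaks. The Santa Cruz density became 2.98 times the shifted mean (2.39 with 20 kb). A window of 50 kb raised the share of H2 genes with a Santa Cruz peak to 77.8%. The shares of all genes were not determined for gene bodies or for 50 kb, so that these values have no background beside them. Restricting shifts to 100 kb to 5 Mb, or joining neighbouring windows into spans, lowered the Novus ratio to 2.96 and 3.07, within the interval of its count. The Santa Cruz ratio stayed between 1.89 and 2.98 under all alternatives run. Of 39 alternative values, 33 stayed within the counting interval of the main value and none reversed. The lists carry no peak heights, so that a stricter threshold on peaks was not run.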
